A study of Mus musculus with 4 samples.

Results

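The 8 potassium channel genes described here are Kcnma1, Kcnmb1, Kcnn3, Kcnn4, Kcnq1, Kcnq5, Kcnj2 and Kcna5. They were chosen by name from the 32285 genes of a single-cell RNA sequencing matrix and read as raw UMIs, that is, counts of distinct captured RNA molecules. The cells came from collecting lymphatic vessels, with adjacent tissue, of C57BL/6J mice aged 12 to 14 weeks, 4 male and 4 female, and the labels name no treatment or transgene. Vessels of 4 body regions were combined for each mouse, and the mice of each sex were tagged, pooled and captured together. Each barcode carries a suffix running 1 to 8. The labels do not tie a suffix to a mouse or a sex, so the matrix was treated as 1 pooled sample, the suffixes served as unlabelled subsets, and no test between conditions was possible.

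Potassium channels carry an outward current that pulls the membrane potential of muscle and endothelium negative, which in muscle closes voltage-gated calcium channels. Calcium-activated channels couple this current to local calcium release or entry, voltage-gated channels open on depolarization, and inward rectifiers hold the resting potential. In collecting lymphatic vessels the muscle layer fires spontaneous action potentials that drive each contraction, and potassium channels set how quickly it fires.

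The members were described in 7 cell types picked cell by cell with canonical markers, none of them a member. The gates held 8659 immune cells, 583 lymphatic muscle cells, 324 vascular muscle cells, 68 pericytes, 73 initial and 450 collecting lymphatic endothelial cells and 265 blood endothelial cells, of 22947 cells kept. Both muscle types had to carry Myh11, the smooth muscle myosin. Lymphatic muscle was picked by markers that included Actc1 and Slc22a3, and vascular muscle by Pln, Rergl and Heyl. Among lymphatic muscle markers that the gate did not use, Ano1, the calcium-activated chloride channel, was at 284 CPM in lymphatic muscle and 93.8 CPM in vascular muscle. Gjc1, a connexin, was at 132 CPM in lymphatic muscle and 190 CPM in vascular muscle. The other unused marker, not named here, was also lower in lymphatic muscle. Unused vascular muscle markers were higher in vascular muscle, but by little for Rgs5 (97.4 CPM in lymphatic, 99.3 CPM in vascular muscle). The widest difference was in Sncg (410 CPM in lymphatic, 824 CPM in vascular muscle). A further 587 Myh11-positive cells met neither muscle gate, for want of either kind's markers or for carrying those of both. Pericytes had Rgs5 at 2057 CPM but also the fibroblast genes Col1a1 at 624 CPM and Dpt at 228 CPM, the highest values of the 7 types. Lymphatic endothelium carried Prox1 (931 CPM in initial and 1110 CPM in collecting cells) and was split by Lyve1 and Ccl21a.

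Levels are given as CPM, the UMIs of a gene per 1000000 UMIs summed over the cells of a type, with exact Poisson 95% intervals in brackets. For a ratio of CPM the 95% interval, in parentheses, is the exact conditional binomial one. All intervals cover counting error only, and a count of 0 was given an upper limit of 3 UMIs in the pool. A ratio to a count of 0, here called a bound, sets the measured level over that limit. It leaves out the counting error of the measured level, so the lower 95% limit of the ratio is given beside it where pooled levels are compared. Summed UMIs were 66304944 in immune cells, 5442823 in lymphatic muscle, 2547920 in vascular muscle, 426347 in pericytes, 1058182 in initial and 7035538 in collecting lymphatic endothelium and 1904638 in blood endothelium. Pericytes, with the smallest pool, gave the least precise values, and a count of 0 there allows up to 7.04 CPM, against 0.551 CPM in lymphatic muscle. Genes were not ranked against each other, since UMIs were not corrected for what makes one transcript easier to capture than another.

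**Figure D1:**
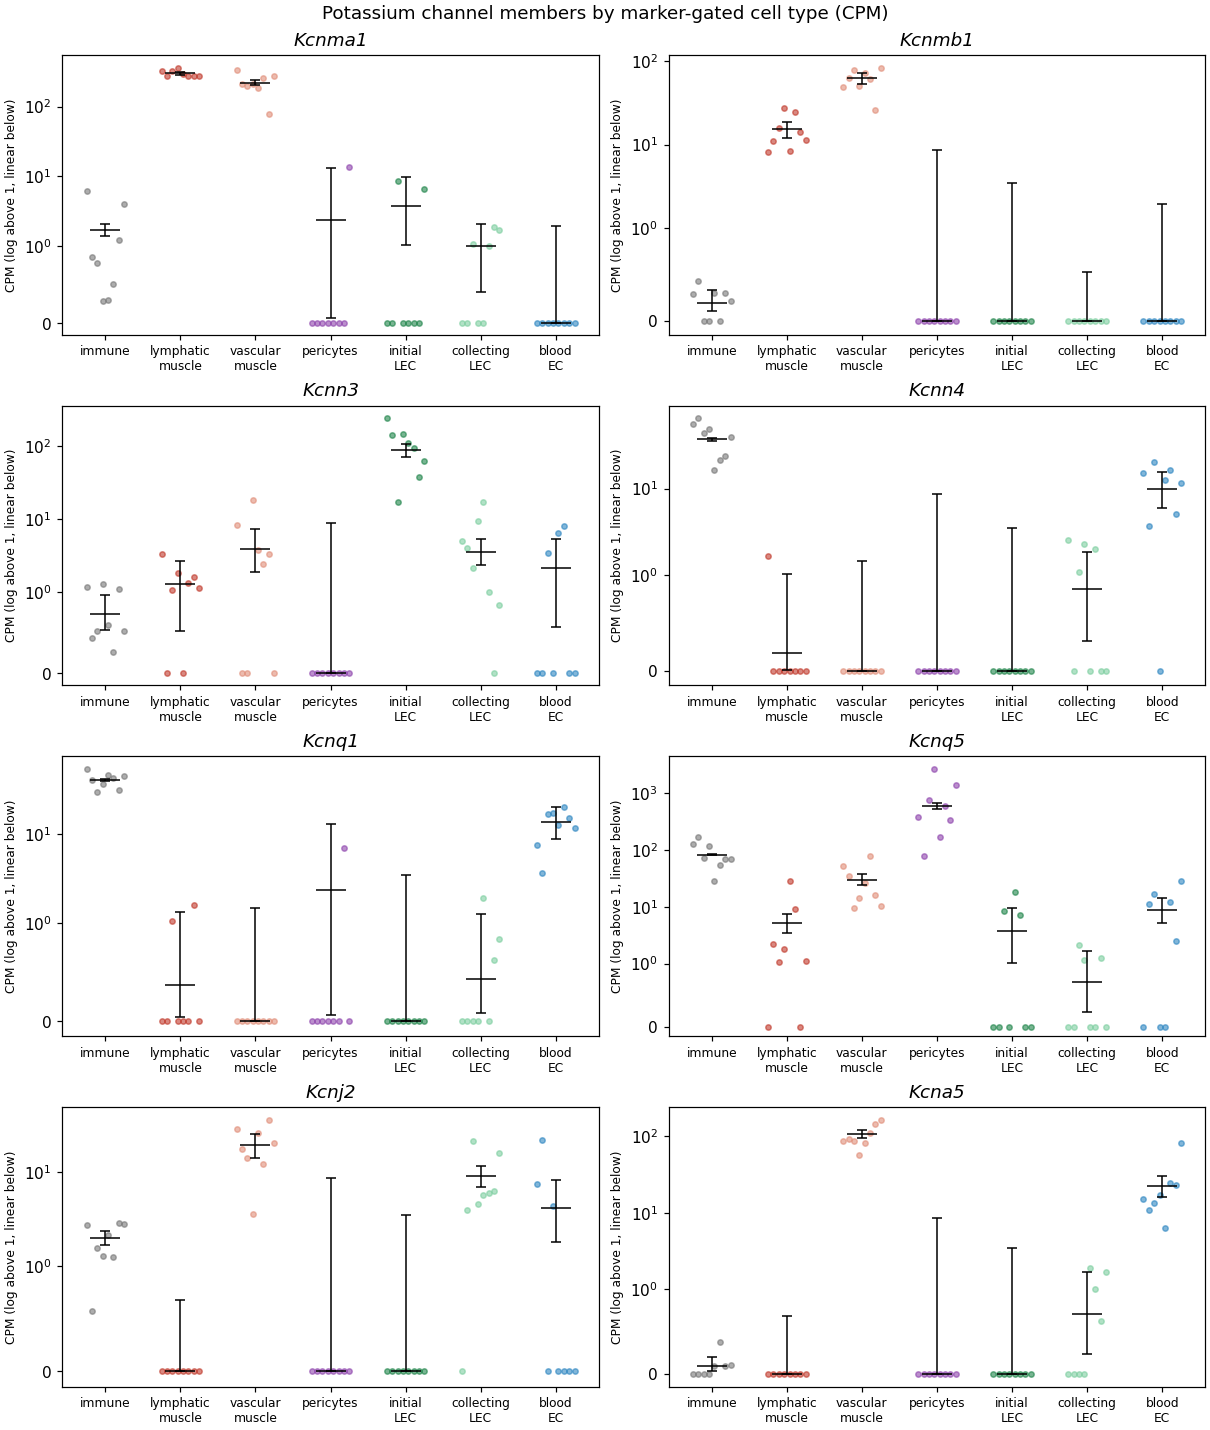
CPM (vertical axis, logarithmic above 1 and linear below) of each member in the 7 gated cell types. Coloured points are the 8 barcode suffixes, and black dashes are the pooled levels with exact Poisson 95% intervals. Kcnma1 sits at 299 CPM in lymphatic and 219 CPM in vascular muscle and at 3.78 CPM or less elsewhere, whereas Kcna5 and Kcnj2 are at 0 in lymphatic muscle for every suffix.

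Kcnma1 (14:23289431-24014491, minus strand, GRCm38/mm10 coordinates of GENCODE M21, as for all members) encodes the pore of the BK channel, which opens on calcium and depolarization together. It was found in most cells of both muscle types. By suffix, lymphatic muscle ranged over 271 CPM at the lowest, 284 CPM at the median and 362 CPM at the highest, and vascular muscle over 78.7, 208 and 331 CPM. The ranges overlap, and the level was higher in lymphatic muscle within 6 of 8 suffixes. Pooled, Kcnma1 was at 299 CPM [285 to 314] in lymphatic muscle and 219 CPM [202 to 238] in vascular muscle, a ratio of 1.36 (1.24 to 1.50), which is short of 2-fold. At least 1 UMI was found in 79.4% of lymphatic muscle cells and 55.2% of vascular muscle cells, whose median depths were 9383 and 7344.5 UMIs. With each cell thinned at random to 1000 UMIs the shares were 22.5% (19.2% to 26.1%) in lymphatic and 16.7% (12.8% to 21.2%) in vascular muscle, by Clopper-Pearson intervals that overlap. In immune cells, with a median of 7070 UMIs, 0.485% of cells had a Kcnma1 UMI, and blood endothelium had none.

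Outside muscle, Kcnma1 was at 2.35 CPM in pericytes (1 UMI), 3.78 CPM in initial and 0.995 CPM in collecting lymphatic endothelium, and 1.70 CPM in immune cells, where 1 macrophage held 23 of 113 UMIs. Within the collecting vessel wall, lymphatic muscle stood 300-fold (145 to 748) above collecting lymphatic endothelium. The log2 ratio of 8.23 rests on 7 endothelial UMIs and was 9.77 in suffixes 1 to 4, which held 1 of them. Against pericytes the ratio was 127 (22.8 to 5037), and with cell types taken from Leiden clusters in place of gates the log2 ratio was 1.79 instead of 6.99. That pericyte cluster held 376 cells, of which 92 met a gate. Among cells outside the 7 types, epithelium (237 cells, all in suffixes 1 to 4) had 83.8 CPM and fibroblasts 11.4 CPM. The antisense genes Gm29626 and 4930519K11Rik, annotated over Kcnma1, had 0 UMIs in both muscle types.

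Kcnmb1 (11:33963013-33973641, plus strand) encodes the beta1 subunit, which raises the calcium sensitivity of the BK pore in smooth muscle. Unlike its pore partner it was lower in lymphatic muscle. Suffix levels were 8.23 CPM at the lowest, 12.7 CPM at the median and 27.5 CPM at the highest in lymphatic muscle, and 26.2, 61.3 and 83.8 CPM in vascular muscle. The highest lymphatic suffix just passed the lowest vascular one, but within each of the 8 suffixes lymphatic muscle was lower. The pooled levels were 15.2 CPM [12.1 to 18.9] in lymphatic and 62.0 CPM [52.7 to 72.5] in vascular muscle, a ratio of 0.246 (0.186 to 0.323). It was found in 10.5% of lymphatic and 34.6% of vascular muscle cells, and after thinning in 1.89% (0.947% to 3.36%) and 5.56% (3.33% to 8.64%) of them in the same order. Pericytes, both kinds of lymphatic endothelium and blood endothelium had 0 UMIs. Lymphatic muscle was at least 35.8-fold above collecting lymphatic endothelium, and at least 2.17-fold above pericytes. The bound against pericytes, 1.12 on the log2 scale, dropped to 0.65 with stricter gates and 0.74 in suffixes 5 to 8, both under 2-fold. Immune cells had 0.196 CPM.

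Pore and subunit were also read in the same cells. Among lymphatic muscle cells with a Kcnma1 UMI, 51 of 463 (11%) also had a Kcnmb1 UMI, whereas in vascular muscle 71 of 179 (39.7%) did. Among cells without a Kcnma1 UMI the shares were 8.33% in lymphatic and 28.3% in vascular muscle. Cells with Kcnma1 were also deeper, with medians of 9618 against 7988 UMIs in lymphatic and 8341 against 6714 UMIs in vascular muscle. The part of depth in these shares was not tested. Kcna5 and Kcnj2, described next, share with Kcnmb1 the lower level in lymphatic muscle.

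The 250 bases upstream of the RefSeq transcription start (GRCm38.p6) are shown for these 3 members, because all of them were lower in lymphatic muscle within each of the 8 suffixes, a choice made after their values were seen. Capitals mark GGGCGG on either strand, a binding motif of Sp1-type factors. The windows are chr11:33962763-33963012, plus strand, for Kcnmb1, chr6:126535556-126535805, minus strand, for Kcna5 and chr11:111065914-111066163, plus strand, for Kcnj2.
Kcnmb1: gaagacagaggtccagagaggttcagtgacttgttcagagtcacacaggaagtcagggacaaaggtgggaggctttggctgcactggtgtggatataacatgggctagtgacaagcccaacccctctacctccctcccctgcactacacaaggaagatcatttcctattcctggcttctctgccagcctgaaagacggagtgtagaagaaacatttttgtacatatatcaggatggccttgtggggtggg
Kcna5: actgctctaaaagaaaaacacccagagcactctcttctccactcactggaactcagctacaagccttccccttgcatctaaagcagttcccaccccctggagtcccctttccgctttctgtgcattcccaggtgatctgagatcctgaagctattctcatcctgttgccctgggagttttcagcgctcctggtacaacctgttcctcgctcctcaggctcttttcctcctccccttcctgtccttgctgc
Kcnj2: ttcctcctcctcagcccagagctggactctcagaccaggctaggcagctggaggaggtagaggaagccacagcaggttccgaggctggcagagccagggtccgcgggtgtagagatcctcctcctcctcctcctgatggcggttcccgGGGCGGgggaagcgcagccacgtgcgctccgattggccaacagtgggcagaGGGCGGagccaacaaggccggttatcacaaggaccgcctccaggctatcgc
Kcnj2 held 2 GGGCGG matches, starting at -102 and -51 relative to the transcription start, and Kcnmb1 and Kcna5 held none. Of 32851 mouse promoter windows of this length, 32.7% held a match. GC content was 50.8% for Kcnmb1, 53.2% for Kcna5 and 65.6% for Kcnj2. Neither the CArG box, the element bound by serum response factor, nor TATAAA was found on either strand of the 3 windows, and 1.47% and 12.4% of all windows hold them.

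Kcna5 (6:126532551-126535412, minus strand) encodes Kv1.5, a voltage-gated channel of arterial muscle. No UMI was found in the 583 lymphatic muscle cells, in any suffix. In vascular muscle the suffixes ran over 57.3 CPM at the lowest, 89.4 CPM at the median and 165 CPM at the highest, so the groups did not overlap. The pooled level was 106 CPM [94.1 to 120] in vascular muscle, from 271 UMIs in 163 cells (50.3%), and lymphatic muscle was at least 193-fold lower. The 587 muscle cells of neither gate had 11.8 CPM [8.84 to 15.5]. Pericytes and initial lymphatic endothelium had 0 UMIs and collecting lymphatic endothelium 0.711 CPM.

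Blood endothelium was the other cell type with Kcna5. It stood at 6.33 CPM in the lowest suffix, 16.1 CPM at the median and 81.0 CPM in the highest, pooled 22.6 CPM [16.3 to 30.4]. Collecting lymphatic endothelium was lower in all 8 suffixes, with a ratio of 0.0315 (0.00973 to 0.0793) to blood endothelium. Its log2 value of -4.99 was -3.65 in suffixes 1 to 4. Muscle transcripts were also present in the blood endothelial cells. All 7 smooth muscle markers had UMIs there, at levels between 1.05 CPM (Cnn1) and 480 CPM (Tagln), against 484 and 10681 CPM of these in vascular muscle. Of the vascular muscle markers, Sncg was at 184 CPM and Mustn1 at 171 CPM in blood endothelium, against 824 and 2129 CPM in vascular muscle, and Pln at 1.58 CPM against 535 CPM. Kcnma1 and Kcnmb1 had 0 UMIs in blood endothelium. The part of muscle RNA in the Kcna5 level was not tested. A division of blood endothelium by its own markers, made after the levels were seen, gave 67.0 CPM [45.5 to 95.1] in 85 Rgcc-high cells and 2.76 CPM [0.570 to 8.07] in 90 Plvap-high cells. The first had a median of 3852 UMIs and the second of 10286 UMIs.

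Kcnj2 (11:111066164-111076821, plus strand) encodes Kir2.1, the strong inward rectifier. Like Kcna5, it had 0 UMIs in lymphatic muscle. Vascular muscle suffixes lay at 3.58 CPM (lowest), 19.0 CPM (median) and 36.1 CPM (highest), all above lymphatic muscle. Pooled, vascular muscle had 19.2 CPM [14.2 to 25.4] in 12.0% of its cells, and lymphatic muscle was at least 34.9-fold lower. Of vascular muscle cells with Kcna5, 21 of 163 (12.9%) also had a Kcnj2 UMI, and of those without Kcna5 11.2% had one.

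In endothelium, Kcnj2 was seen in the collecting but not the initial lymphatic cells. The suffixes of collecting lymphatic endothelium ran over 0 CPM at the lowest, 5.83 CPM at the median and 21.5 CPM at the highest, and all suffixes of initial cells were at 0. Pooled, initial cells had 0 UMIs, which allows up to 2.84 CPM, and collecting cells 9.10 CPM [7.01 to 11.6], so initial cells were at least 3.21-fold lower. This bound, -1.68 on the log2 scale, was -1.15 in suffixes 5 to 8. Against blood endothelium (4.20 CPM [1.81 to 8.28], 8 UMIs in 3 cells) the collecting cells stood 2.17-fold higher (1.04 to 5.23), in 6 of 8 suffixes. One blood endothelial cell held 6 of the 8 UMIs, and without the top cell of each type the log2 ratio was 2.93 instead of 1.11. Within the vessel wall, lymphatic muscle was at least 16.5-fold below collecting endothelium. Immune cells had 1.99 CPM, at least 3.61-fold above lymphatic muscle, with macrophages at 2.46 CPM. That bound, 1.85 on the log2 scale, was 1.08 with stricter gates, 0.39 in suffixes 1 to 4 and 1.17 in suffixes 5 to 8.

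**Figure D2:**
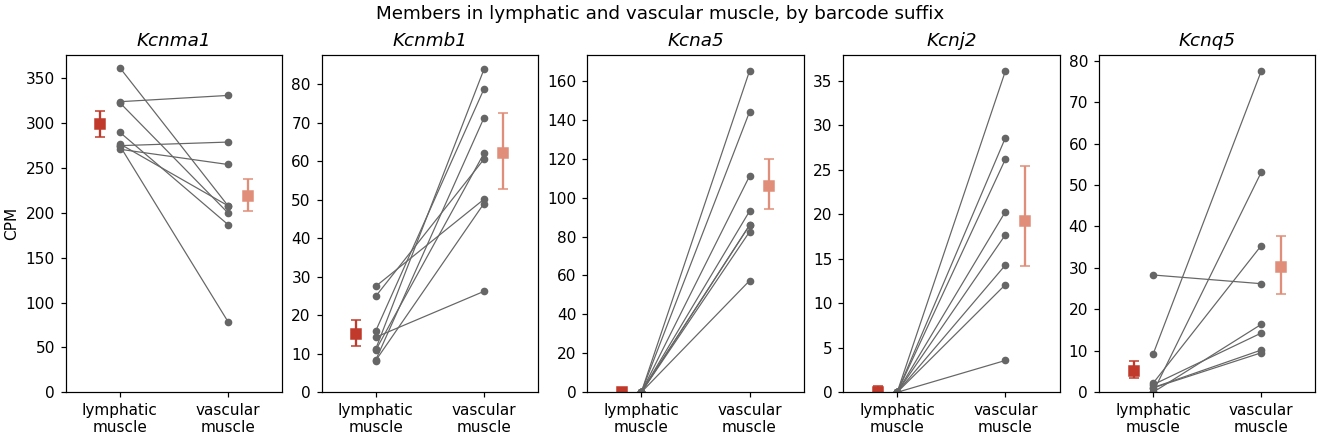
CPM of 5 members in lymphatic muscle (left of each panel) and vascular muscle (right). Grey points joined by lines are the 8 barcode suffixes, and coloured squares are pooled levels with exact Poisson 95% intervals. Kcnmb1, Kcna5 and Kcnj2 are lower in lymphatic muscle on all 8 lines, Kcnq5 on 7, and Kcnma1 is higher there on 6.

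Set against all genes at 10 CPM or more in either muscle type, 8.93% were at least 2-fold lower in lymphatic muscle and 12.9% at least 2-fold higher, of 8893 genes. Of the 5 members at that level, 4 were at least 2-fold lower (Kcna5, Kcnj2, Kcnmb1 and Kcnq5) and none was higher. A ratio of summed CPM cannot tell fewer molecules per cell from a larger share of cells that lack the gene. Vascular muscle cells also had a higher median share of mitochondrial UMIs, 2.49% in lymphatic and 4.80% in vascular muscle, and what that did to these levels was not tested.

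Kcnq5 (1:21398403-21961942, minus strand) encodes Kv7.5, a slowly activating voltage-gated channel that restrains vascular tone. Of the 7 types it was highest in pericytes, which ranged over 78.3 CPM at the lowest suffix, 493 CPM at the median and 2666 CPM at the highest. Suffixes held only 2 to 19 pericytes. The lowest level rests on 1 UMI in 3 cells and the highest on 13 UMIs in 2 cells. The pooled pericyte level was 600 CPM [529 to 679], in 57.4% of cells. One pericyte held 67 of the 256 UMIs, and without it the level was 470 CPM [405 to 542]. In lymphatic muscle the suffixes lay at 0, 1.47 and 28.3 CPM (lowest, median and highest), and in vascular muscle at 9.54, 21.3 and 77.5 CPM. Pooled, Kcnq5 was at 5.14 CPM [3.42 to 7.44] in lymphatic and 30.2 CPM [23.8 to 37.8] in vascular muscle, a ratio of 0.170 (0.106 to 0.265). A single lymphatic muscle cell held 17 of 28 UMIs, and without it lymphatic muscle had 2.03 CPM [1.01 to 3.62]. Its suffix was the 1 of 8 in which lymphatic muscle was higher, and the ranges overlapped through that suffix alone. On the log2 scale the ratio was -2.55, and it was -3.59 without the top cell of each type and -4.40 in suffixes 1 to 4.

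Lymphatic muscle had 0.00857 (0.00558 to 0.0127) of the pericyte level of Kcnq5, below it in all 8 suffixes and without overlap. The log2 ratio of -6.87 became -7.86 without the top cell of each type, -8.99 in suffixes 1 to 4, -6.12 in suffixes 5 to 8 and -3.73 with Leiden clusters. Of all genes, 10.4% were at least 2-fold higher in lymphatic muscle than in pericytes and 17.4% at least 2-fold lower. Of the 3 members at 10 CPM or more there, Kcnma1 and Kcnmb1 were higher and Kcnq5 lower. For Kcnmb1 the call rests on 0 UMIs in pericytes, and its bound was under 2-fold with stricter gates and in suffixes 5 to 8. Gated endothelium had little Kcnq5: 3.78 CPM in initial and 0.711 CPM in collecting lymphatic cells, and 8.93 CPM in blood endothelium. Leiden clusters gave more Kcnq5 UMIs: 313 in the 461 cells of the blood endothelial clusters, against 17 in 265 gated cells. The collecting cluster had 30 UMIs in 561 cells, against 5 UMIs in 450 gated cells. In the blood endothelial clusters 108 of 130 and 166 of 331 cells met any gate, and in the collecting cluster 445 of 561. Whether the cells outside the gates are endothelial was not tested.

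Kcnq1 (7:143106362-143427042, plus strand) encodes Kv7.1, the other Kv7 member here, known from the cardiac slow delayed rectifier. Muscle had almost none: lymphatic muscle had 2 UMIs (0.367 CPM) and vascular muscle 0 UMIs, so no ratio was formed. Both lymphatic endothelia were equally poor, with 0 UMIs in initial and 3 in collecting cells. Blood endothelium had 3.67 CPM at the lowest suffix, 14.0 CPM at the median and 20.2 CPM at the highest, pooled 13.7 CPM [8.92 to 20], and collecting lymphatic endothelium 0.0312 (0.00605 to 0.102) of that, below it in all 8 suffixes. Of all genes, 9.41% were at least 2-fold higher and 12% at least 2-fold lower in collecting lymphatic than in blood endothelium. Of the 2 members at 10 CPM or more, Kcna5 and Kcnq1, both were lower, and Kcnn4 and Kcnj2 lay just under that level at 9.98 CPM in blood and 9.10 CPM in collecting lymphatic endothelium. Kcnq1ot1, an imprinted RNA that runs antisense across Kcnq1, was present in each of the 7 types at 77.1 to 162 CPM, so its level did not follow that of Kcnq1. The handling of strand in counting was not known, and reads of a gene and its antisense partner may be mixed. Kcnip1, which runs opposite to Kcnmb1, had 1.29 CPM in lymphatic and 1.18 CPM in vascular muscle.

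Kcnn3 (3:89520164-89675132, plus strand) encodes SK3, a small-conductance channel gated by calcium through calmodulin and known for endothelial hyperpolarization. It was highest in initial lymphatic endothelium. There the suffixes ran over 17.2 CPM at the lowest, 102 CPM at the median and 237 CPM at the highest, whereas collecting cells ran over 0, 3.05 and 17.0 CPM. The ranges came close at their edges without overlap, and initial cells were higher in all 8 suffixes. Suffixes held 3 to 28 initial cells, and the lowest initial level rests on 2 UMIs in 5 cells, so the lack of overlap is not firm. The pooled levels were 86.9 CPM [70.1 to 107] in initial and 3.55 CPM [2.30 to 5.25] in collecting cells, a ratio of 24.5 (15.6 to 39.7). A Kcnn3 UMI was found in 43.8% of initial and 2.89% of collecting cells, whose median depths were 9532 and 9084.5 UMIs. Of all genes, 8.78% were at least 2-fold higher in initial than in collecting cells and 6.2% at least 2-fold lower. Kcnn3 was the single member at 10 CPM or more in that comparison, and it was higher.

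The other types had little Kcnn3: 1.29 CPM in lymphatic muscle, 3.92 CPM in vascular muscle, 2.10 CPM in blood endothelium and 0 UMIs in pericytes. Vascular muscle, collecting lymphatic endothelium and blood endothelium are neighbours in this order and do not differ beyond counting error. The initial cells stood 41.4-fold (15.6 to 155) above blood endothelium. Fibroblasts, outside the 7 types, had 9.65 CPM [8.79 to 10.6].

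Kcnn4 (7:24370263-24386690, plus strand) encodes the intermediate-conductance channel, which sustains calcium entry in activated leukocytes. Immune cells had 16.5 CPM at the lowest suffix, 41.7 CPM at the median and 65.2 CPM at the highest. Suffixes 1 to 4 spanned 43.7 to 65.2 CPM and suffixes 5 to 8 spanned 16.5 to 39.6 CPM, without overlap. In lymphatic muscle 7 of the 8 suffixes were at 0 and the highest was at 1.65 CPM, so the groups did not overlap. Pooled, the levels were 37.3 CPM [35.9 to 38.8] in immune cells and 0.184 CPM in lymphatic muscle (1 UMI), a ratio of 203 (36.4 to 8025). Vascular muscle, pericytes and initial lymphatic endothelium had 0 UMIs. Blood endothelium was second at 9.98 CPM [6.01 to 15.6], and collecting lymphatic endothelium had 0.853 CPM, a ratio of 0.0855 (0.0279 to 0.223) to blood endothelium. Within blood endothelium Kcnn4 was at 19.4 CPM [8.89 to 36.9] in Rgcc-high cells, from 9 UMIs in 6 cells. In Plvap-high cells it was at 0.921 CPM [0.0233 to 5.13], from 1 UMI.

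Immune cells as a whole also exceeded lymphatic muscle in Kcnq1 and Kcnq5. Kcnq1 was at 40.9 CPM [39.3 to 42.4] in immune cells, 111-fold (30.8 to 919) above lymphatic muscle. Kcnq5 was at 83.1 CPM [80.9 to 85.3], 16.2-fold (11.2 to 24.3) above it. The size of that last ratio, 4.01 on the log2 scale, was unsteady: it was 6.67 in suffixes 1 to 4, 2.67 in suffixes 5 to 8, 5.35 without the top cell of each type and 2.97 with Leiden clusters. Of all genes, 24.9% were at least 2-fold higher in immune cells than in lymphatic muscle and 24.3% at least 2-fold lower. Of the 5 members at 10 CPM or more, Kcnn4, Kcnq1 and Kcnq5 were higher and Kcnma1 and Kcnmb1 lower. These pooled values average over unlike leukocytes, of which macrophages made up 5644. Like Kcnn4, Kcnq5 in immune cells lay higher in suffixes 1 to 4 (73.4 to 167 CPM) than in suffixes 5 to 8 (28.9 to 70.4 CPM). T cells numbered 264 in suffixes 1 to 4 and 107 in suffixes 5 to 8, and the part of this in the levels was not tested.

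**Figure D3:**
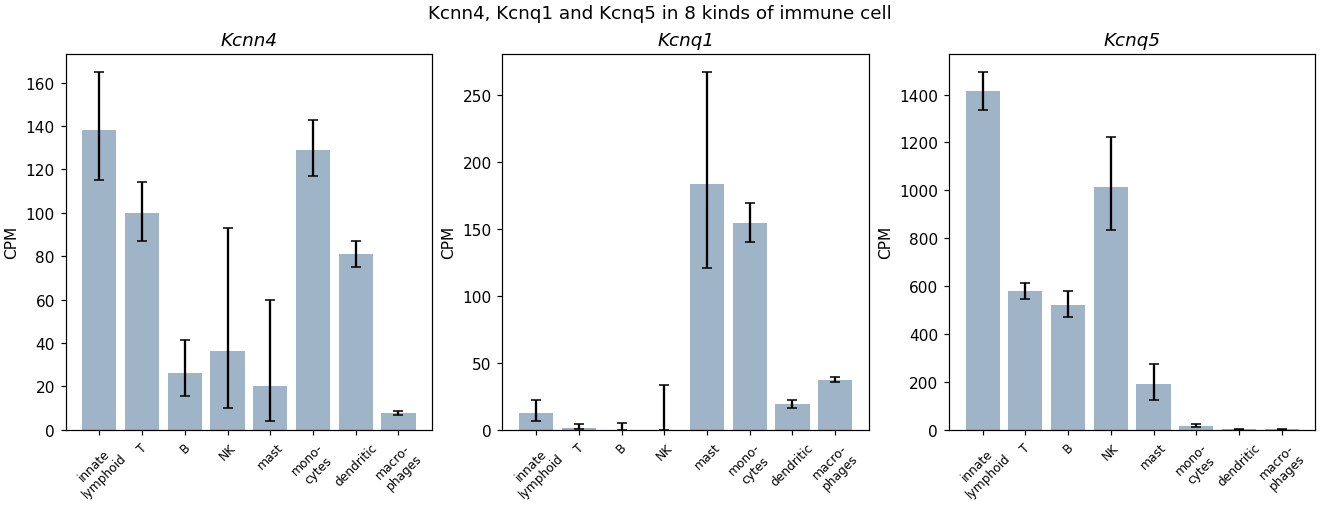
CPM (linear axis from 0) of Kcnn4, Kcnq1 and Kcnq5 in 8 kinds of immune cell picked by their markers, with exact Poisson 95% intervals. Kcnq5 peaks in innate lymphoid cells at 1414 CPM, Kcnq1 in mast cells and monocytes at 183 and 154 CPM, and Kcnn4 in innate lymphoid cells and monocytes at 138 and 129 CPM.

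The 3 immune members had different distributions among leukocytes. Kcnq5 was highest in the 4 lymphoid kinds, with 1414 CPM [1337 to 1495] in 166 innate lymphoid cells, 1015 CPM [836 to 1222] in 27 NK cells, 578 CPM [546 to 611] in 371 T cells and 522 CPM [469 to 578] in 153 B cells. Mast cells came next at 190 CPM [126 to 275], and the other myeloid kinds were far lower, at 16.9 CPM in monocytes, 1.58 CPM in macrophages and 1.38 CPM in dendritic cells. Innate lymphoid cells exceeded T cells 2.45-fold (2.26 to 2.65) and did so in all 8 suffixes, where the innate lymphoid cells spanned 944 to 1761 CPM and T cells 249 to 799 CPM. T cells stood at 0.962 (0.840 to 1.11) of the pericyte level of Kcnq5. Without the 1 pericyte that held 67 UMIs, pericytes were at 470 CPM [405 to 542]. T cells, from which no cell was left out, were at 578 CPM [546 to 611]. Epithelium, outside the 7 types, had 288 CPM.

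Kcnq1 was highest in mast cells and monocytes. It was at 183 CPM [121 to 267] in 69 mast cells, 154 CPM [140 to 169] in 310 monocytes and 37.3 CPM [35.5 to 39.2] in macrophages, with dendritic cells at 19.3 CPM [16.5 to 22.5] and innate lymphoid cells at 12.4 CPM [6.21 to 22.3]. T cells had 1.42 CPM, and B cells and NK cells 0 UMIs, which allows up to 4.35 CPM in B cells and 27.2 CPM in the 27 NK cells. Monocytes exceeded macrophages 4.13-fold (3.72 to 4.58), in all 8 suffixes. Mast cells and monocytes did not differ beyond counting error (ratio 1.19, 0.775 to 1.75).

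Kcnn4 was high in some lymphoid and some myeloid kinds. Innate lymphoid cells had 138 CPM [115 to 165], monocytes 129 CPM [117 to 143], T cells 100 CPM [87.0 to 114] and dendritic cells 80.8 CPM [74.9 to 87.0]. Innate lymphoid cells and monocytes did not differ beyond counting error (ratio 1.07, 0.863 to 1.31). Macrophages were lower, at 7.63 CPM [6.82 to 8.50], and monocytes were 16.9-fold (14.6 to 19.7) above them in all 8 suffixes. Mast cells had 20.4 CPM [4.20 to 59.6] from 3 UMIs, which was 0.158 (0.0324 to 0.464) of the monocyte level. In monocytes, 105 cells carried both Kcnn4 and Kcnq1. Kcnq1 was found in 69.5% of those with a Kcnn4 UMI and 25.8% of those without, and the cells with Kcnn4 were also deeper, with a median of 11449 UMIs against 7303 UMIs. In innate lymphoid cells Kcnq5 was found in 85.3% of cells with Kcnn4 and 84.6% of those without, and in T cells in 57% and 52.1% of them.

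The wider potassium channel family gives the members their setting. Apart from the members, the list held 96 genes, of which 27 reached 10 CPM in at least 1 of the 7 types. Between the muscle types 16 were at 10 CPM or more, and 5 were at least 2-fold higher in lymphatic muscle and 9 at least 2-fold lower. The median difference of the list, on the log2(CPM + 1) scale, was -1.65 in lymphatic relative to vascular muscle, and that of all genes was 0.15.

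Lymphatic muscle was higher in the pair that forms the muscle ATP-sensitive channel. Abcc9, its sulphonylurea receptor, was at 227 CPM in lymphatic and 45.9 CPM in vascular muscle, a ratio of 4.95 (4.10 to 6.04). Kcnj8, its pore Kir6.1, was at 53.8 CPM in lymphatic and 16.9 CPM in vascular muscle, a ratio of 3.19 (2.31 to 4.50). Both are also markers of pericytes, where they reached 450 and 202 CPM. Kcng1, a silent subunit of voltage-gated channels, was at 61.9 CPM in lymphatic and 4.32 CPM in vascular muscle, and Kcnd3, which encodes the A-type channel Kv4.3, at 39.3 CPM in lymphatic and 8.63 CPM in vascular muscle. Kcnt2, a sodium-activated channel related to Kcnma1, was at 18.9 CPM in lymphatic and 2.75 CPM in vascular muscle.

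The genes at least 2-fold lower in lymphatic muscle included Kcnab1, Kcnj12 and Kcnn2. Kcnab1, a beta subunit of Kv1 channels such as Kv1.5, was at 139 CPM in lymphatic and 985 CPM in vascular muscle (ratio 0.142, 0.130 to 0.154). Of 163 vascular muscle cells with Kcna5, 157 had a Kcnab1 UMI (96.3%), against 85.1% of those without Kcna5. The median depth was 7672 UMIs in cells with Kcna5 and 7209 UMIs in those without. Kcnj12, the Kir2.2 relative of Kcnj2, had 0.367 CPM in lymphatic muscle (2 UMIs) and 24.7 CPM in vascular muscle. Kcnn2, the SK2 relative of Kcnn3, had 0.735 CPM in lymphatic and 20.4 CPM in vascular muscle. Kcne4, a subunit that associates with Kv7 channels, was at 110 CPM in lymphatic and 198 CPM in vascular muscle, and Kcnh2 at 26.1 CPM in lymphatic and 27.1 CPM in vascular muscle, both short of 2-fold.

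**Figure D4:**
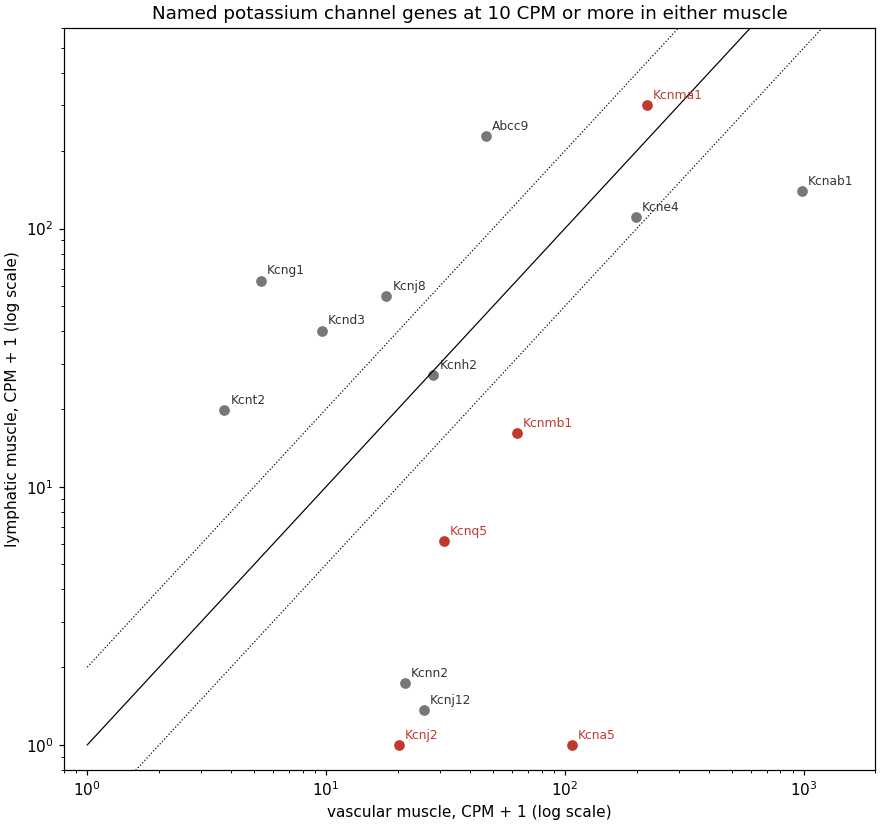
CPM + 1 in lymphatic muscle (vertical, log scale) against vascular muscle (horizontal, log scale) for 15 potassium channel genes named in the text and at 10 CPM or more in either, with 5 members in red. The solid line marks equal levels and dotted lines a 2-fold difference. Kcnma1 lies inside the 2-fold band, and Kcna5 and Kcnj2 lie on the floor of the plot at 0 CPM in lymphatic muscle.

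The same list was counted in the other comparisons. Against pericytes 14 list genes were at 10 CPM or more, of which 3 were at least 2-fold higher and 4 lower in lymphatic muscle. Of 13 in lymphatic muscle and collecting lymphatic endothelium, 10 were higher and 3 lower in lymphatic muscle, where 18.7% of all genes were higher and 18.2% lower and 2 of 2 members (Kcnma1 and Kcnmb1) were higher. Initial and collecting lymphatic endothelium had 4 such genes, of which Kcnj8 was higher in initial cells (55.8 CPM in initial, 5.12 CPM in collecting), as was Kcnk5, a two-pore channel (56.7 CPM in initial, 25.6 CPM in collecting). Kcnt2 was at 131 CPM in collecting lymphatic and 0.525 CPM in blood endothelium (1 UMI). Kcnc2, which encodes Kv3.2, had the opposite distribution, with 0.853 CPM in collecting lymphatic and 81.9 CPM in blood endothelium. Between immune cells and lymphatic muscle 16 were at 10 CPM or more, 5 higher and 10 lower in immune cells, led upward by Kcnk13, a two-pore channel, at 63.8 CPM in immune cells and 0.184 CPM in lymphatic muscle.

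Of the calcium sources of calcium-activated channels, Ryr2 and Ryr3 were at least 2-fold lower in lymphatic muscle, and Itpr1 and Cacna1c were within 2-fold. Ryr2, the ryanodine receptor whose sparks open BK channels in arterial muscle, was at 87.1 CPM in lymphatic and 223 CPM in vascular muscle (ratio 0.391, 0.346 to 0.443), and Ryr3 at 4.23 CPM in lymphatic and 45.1 CPM in vascular muscle. Itpr1, the inositol trisphosphate receptor, was at 351 CPM in lymphatic and 350 CPM in vascular muscle (ratio 1.00, 0.923 to 1.08). Cacna1c, the L-type calcium channel, was at 1145 CPM in lymphatic and 605 CPM in vascular muscle (ratio 1.89, 1.79 to 2.00).

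Trpv4, the calcium-permeable channel named in the study's title, was at 1.29 CPM in lymphatic muscle and 0.785 CPM in vascular muscle, and at 13.2 CPM in initial lymphatic endothelium, 18.9 CPM in collecting lymphatic endothelium, 39.4 CPM in blood endothelium and 32.7 CPM in immune cells. It was thus near 0 in both muscle types that held Kcnma1. In initial lymphatic endothelium 32 cells had Kcnn3, 12 had Trpv4 and 5 had both. In blood endothelium 13 cells had Kcnn4, 48 had Trpv4 and 7 had both, so that Trpv4 was found in 53.8% of cells with Kcnn4 and 16.3% of those without. The cells with Kcnn4 had a median of 10046 UMIs and those without 4969.5 UMIs, and the part of depth in these shares was not tested. In collecting lymphatic endothelium 37 cells had Kcnj2, 98 had Trpv4 and 8 had both, and Trpv4 was found in 21.6% of cells with Kcnj2 and 21.8% of those without.

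The genes with the pattern most like each member over the 7 types were taken by Pearson correlation of log2(CPM + 1), among 9447 genes at 20 CPM or more in at least 1 type. With 7 points that share their libraries and differ in depth, these are descriptions. Churc1 was closest to Kcnma1 (r = 0.997), 4930520O04Rik to Kcnmb1 (0.994), Pnpla2 to Kcna5 (0.972) and Smim5 to Kcnj2 (0.979). Sez6l was closest to Kcnn3 (0.956), followed by Ccl21a (0.935), which the initial lymphatic gate used. Dach2 was closest to Kcnn4 (0.999), Shtn1 to Kcnq1 (0.984) and Cyp51 to Kcnq5 (0.975).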

How the data were processed

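The matrix deposited by the authors holds raw UMI counts for each gene and barcode. Its header names Cell Ranger 7.1.0, and Seurat 4.3.0.1 and build mm10 are named in the submitters' processing notes. The annotation, the strand setting and the counting of introns are not given in the sources used here. Barcodes with at least 500 UMIs, 300 genes and under 15% mitochondrial UMIs were kept (380 of 24046 removed). Doublets were scored by simulation (2 per cell, expected rate 6%) within suffixes 1 to 4 and 5 to 8, since 44 barcode sequences occurred in both sets and none recurred within a set. This removed 719 cells (3.04%). Suffixes held 23828933 to 32467001 UMIs in 2375 to 3315 barcodes.

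Smooth muscle needed at least 20 Myh11 UMIs per 10000 and 5 in all. Each muscle kind needed at least 2 UMIs of its own 3 markers and at most 1 of the other kind's. Pericytes needed under 10 Myh11 UMIs per 10000, 2 of Rgs5 and 5 over 5 pericyte markers. Lymphatic endothelium needed 3 UMIs over 6 endothelial genes and 3 over Prox1, Flt4 and Mmrn1. Initial cells had 5 or more of Lyve1 and Ccl21a together and collecting cells at most 1. Blood endothelium needed Flt1 and 3 UMIs over 5 blood markers, and immune cells 3 over 5 immune genes. Cells with markers of other types were left out. Some genes of the marker and channel lists are counted but not reported here. These thresholds were set after the marker profiles of clusters had been seen.

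The members and lists were chosen with earlier results of these data known. The genes named are the 8 members, potassium channel list genes at 10 CPM or more in a gated type, the listed calcium sources and the closest genes by correlation. Past 2-fold, among genes at 10 CPM or more in either type, counts as a call. The ratio, interval and call were tested on simulated data with known folds. Python 3.11.15, numpy 2.4.6, scipy 1.17.1, scanpy 1.11.5, igraph 0.11.9 and matplotlib 3.10.9 were used. Positions are from GENCODE M21 and promoters from RefSeq, whose table matched 7 of the 8 members. Alternatives were stricter gates, Leiden clusters (2000 variable genes, 30 components, 15 neighbours, resolution 1.5, potassium channel list left out), a stricter cell filter, doublets kept, cells weighted equally, each set of 4 suffixes and, added after seeing the data, leaving out the top cell of each type.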

Additional observations from a re-analysis of the deposited data

Results flagged for a closer look

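Kcna5 in blood endothelium was at 81.0 CPM in suffix 8, well apart from the other 7 suffixes, of which the nearest was at 24.2 CPM and the lowest at 6.33 CPM. This value rests on 14 UMIs in 26 cells. It was the 1 gap past Dixon's 95% critical value among 17 sets of 8 suffix levels with at least 40 UMIs, and chance alone flags about 1 set in 20.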

How the results depend on the processing

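Of 28 ratios with at least 20 UMIs, recomputed under 8 settings, 185 of 222 values stayed within the counting interval of the reported one, and 37 moved out of it. One value had the other sign: Kcnn3 in collecting over blood endothelium, whose interval includes equal levels, was -0.28 in suffixes 5 to 8 (main 0.76). On the log2 scale, Kcna5 in lymphatic over vascular muscle moved to -7.02 with stricter gates, -6.10 in suffixes 1 to 4 and -6.95 in suffixes 5 to 8. Kcnj2 moved to -4.28, -3.71 and -4.44 under the same settings. Both are bounds set by 3 UMIs, which follow the size of the smaller pool. Kcnn4 in immune cells over lymphatic muscle, with 0 UMIs in lymphatic muscle, became a bound of 4.61 in suffixes 5 to 8. Kcnq5 in lymphatic over vascular muscle moved to -4.40 in suffixes 1 to 4 and to -3.59 without the top cell of each type (main -2.55). Kcnq5 in immune cells over lymphatic muscle ran between 2.67 in suffixes 5 to 8 and 6.67 in suffixes 1 to 4 (main 4.01). With Leiden clusters, lymphatic muscle over pericytes was 1.79 for Kcnma1 and -3.73 for Kcnq5, and the pericyte cluster held 376 cells, of which 92 met a gate. For Kcnj2, collecting over blood endothelium was 2.93 without the top cell of each type, since 2 UMIs then remained in blood endothelium. In suffixes 1 to 4 no bound could be given for Kcnmb1 against pericytes (18 pericytes) or for Kcnj2 in initial cells (27 cells). Kcnq1 between muscle types had 2 UMIs and was not run. All 10 shares of cells with a UMI fell after thinning to 1000 UMIs, as thinning must. Cell types were compared within each suffix by counts of suffixes only, and no paired test was run.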
